A study of Mus musculus with 48 samples.

Results

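The genes described here are 10 cytokine genes of the tumour necrosis factor (TNF), interleukin-6 (IL-6), IL-10 and IL-12 families, namely Tnf, Il6, Il10, Il12a, Il12b, Il23a, Il27, Ebi3, Osm and Lif. They were taken by gene symbol from a table of 51789 gene lines, and all 10 were found. Sequencing of mRNA 3′ ends gave their RNA levels in 48 libraries of mouse (C57BL/6) macrophages, in 16 groups of 3. Each of 8 populations was kept for 4 h with 10 µM the compound AP-3-84, known here by its code name alone, or with DMSO, its solvent (vehicle). The ascites population was washed from the peritoneum 45 days after ID8 tumour cells were injected. ID8 is a mouse ovarian cancer line, and the labels give these mice the genotype B6(Cg)-Tyrc-2J/J. The thio population came from the peritoneum of wild-type mice which had received 1 ml of 3% thioglycolate 4 days before; this irritant recruits macrophages. Cells of both carried F4/80, a macrophage surface protein, by which they had been sorted with magnetic beads. The remaining 6 were macrophages derived from bone marrow (BMDM) of wild-type (WT) or p53 knockout (KO) mice, all cultured with M-CSF at 10 ng/mL for 6 days. M0 cells were left unpolarized. M1 cells were exposed to LPS (100 ng/mL) plus IFN-γ (50 ng/mL) for 24 h, and M2 cells to IL-4 (10 ng/mL) plus IL-13 (10 ng/mL) for as long. The genotype field of the labels calls the KO libraries wild-type too, while titles and the series design separate them. The sources used here state neither the mice's age and number, nor the knockout allele, nor whether libraries of a group came from separate mice or cultures, so p-values measure the spread between these libraries.

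TNF is a trimeric cytokine that macrophages release early in inflammation, and it acts through the receptors encoded by Tnfrsf1a and Tnfrsf1b. IL-6, oncostatin M (Osm) and leukaemia inhibitory factor (Lif) signal through receptor complexes that contain gp130, the product of Il6st. IL-10 restrains macrophage activation through STAT3. Cytokines of the IL-12 family are dimers of shared chains: Il12b encodes the chain common to IL-12 and IL-23, Il12a and Il23a encode their partners, and Ebi3 pairs with the product of Il27 to form IL-27. Secretion of a dimer therefore depends on more than the RNA of one chain, and only RNA was measured here. In macrophages several of these genes are switched on through Toll-like receptors, and some of them also through interferon-γ receptors. NF-kB, AP-1, C/EBP and IRF proteins are among the factors known to bind promoters of such genes.

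The promoters of 4 members whose RNA differed between groups are shown, since sequences of this stretch hold known control elements of these genes. Of the 10 members, 6 were in the RefSeq promoter table used (GRCm38.p6). Each sequence is the 250 bases before the annotated start, 5′ to 3′ on the gene's strand, and capitals mark matches to the NF-kB decamer. They lie at chr17:35202008-35202257 (minus strand, Tnf), chr5:30012864-30013113 (plus strand, Il6), chr11:44399813-44400062 (plus strand, Il12b) and chr17:55952373-55952622 (plus strand, Ebi3).
Tnf: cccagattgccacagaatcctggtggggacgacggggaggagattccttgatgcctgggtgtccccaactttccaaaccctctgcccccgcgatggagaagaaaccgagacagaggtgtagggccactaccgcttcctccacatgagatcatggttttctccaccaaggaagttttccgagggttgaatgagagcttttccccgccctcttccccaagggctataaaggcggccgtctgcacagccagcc
Il6: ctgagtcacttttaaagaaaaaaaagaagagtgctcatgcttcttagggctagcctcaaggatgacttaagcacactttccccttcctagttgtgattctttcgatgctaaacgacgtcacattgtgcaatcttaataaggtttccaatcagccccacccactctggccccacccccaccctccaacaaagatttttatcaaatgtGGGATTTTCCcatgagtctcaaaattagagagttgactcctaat
Il12b: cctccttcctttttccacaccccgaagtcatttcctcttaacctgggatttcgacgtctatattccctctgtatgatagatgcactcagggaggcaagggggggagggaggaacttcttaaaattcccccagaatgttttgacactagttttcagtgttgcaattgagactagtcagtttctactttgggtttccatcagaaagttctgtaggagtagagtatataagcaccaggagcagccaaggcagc
Ebi3: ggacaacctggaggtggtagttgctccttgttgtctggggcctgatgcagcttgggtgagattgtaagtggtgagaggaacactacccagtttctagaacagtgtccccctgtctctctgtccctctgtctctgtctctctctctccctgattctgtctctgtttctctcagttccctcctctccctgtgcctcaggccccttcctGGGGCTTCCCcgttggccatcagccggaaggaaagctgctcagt
Searched on both strands, the decamer had 1 match in the Il6 window (GGGATTTTCC, starting 44 bases before the start), 1 in the Ebi3 window (GGGGCTTCCC, 44 bases before the start) and 1 in the Lif window (GGGACGCCCC, 178 bases before the start). It had none in the windows of Tnf, Il12b and Il12a. Of 32851 promoter windows of the same length, 7.25% held a match. The AP-1 motif TGANTCA matched in Il6 (249 bases before the start) and Lif (228 bases), against 6.75% of all windows. The C/EBP motif TTGCNNAA matched in Il6 only (128 bases before the start), among the 6 members, against 9.56% of all windows, and the IRF motif (GAAA, then any 2 bases, then GAAA) in none of the 6, against 2.98%. Matches of different motifs did not overlap. A match is a run of letters and not a measured site.

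Total counts of the 12 peritoneal libraries lay between 15532373 and 19417581, those of the 36 BMDM libraries between 3081707 and 4645148, so low genes were measured more precisely in the former. The 2 sets were fitted apart and not compared by a test. The macrophage markers Adgre1, Csf1r, Itgam, Cd68, Mertk, Fcgr1 and Lyz2 were counted in every group (7 of 7). As a check of genotype, the p53 target Cdkn1a stood at 555 to 1119 CPM (counts scaled to a common library size, defined below) in WT and 34.1 to 292 CPM in KO libraries. As a check of polarization, the M2 gene Arg1 averaged 1461 CPM in WT_M2 and 2086 CPM in KO_M2 vehicle libraries, against 3.90 and 1.46 CPM in M0. In M1 vehicle libraries it averaged 47.3 CPM (WT) and 90.5 CPM (KO), also above M0. The M1 gene Nos2 averaged 3.38 CPM in WT_M1 and 2.28 CPM in WT_M2 vehicle libraries, with overlap, so it did not separate M1 from M2 in WT. In KO it averaged 12.2 CPM in M1 and 3.26 CPM in M2, without overlap. The heat shock gene Hspa1a was higher with AP-3-84 in all 8 group means. CPM are counts relative to library totals corrected by TMM scaling, and values below are listed in the order of replicates 1, 2 and 3 of a group. Overlap of groups, or its absence, is given as a description of the values. The share of all genes without overlap was not counted in any comparison, so it adds nothing to the tests.

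Of the 10 members, 7 passed the filter on low counts in BMDM (Tnf, Il6, Il10, Il12b, Il27, Ebi3, Osm) and 6 in peritoneal cells (Tnf, Il12b, Il23a, Il27, Ebi3, Osm). The other members had too few reads for a test. Il12a had 0 counts in all 12 peritoneal libraries and 76 over the 36 BMDM libraries, where 22 libraries had 0. Lif had 45 counts over the peritoneal libraries, of which 22 were in each ascites group, and 30 over BMDM. Il23a went the other way, with 287 counts over 12 peritoneal libraries, where each library had from 13 to 32, and 13 counts over 36 BMDM libraries, where 31 had 0. Il6 and Il10 had 46 and 44 counts over the peritoneal libraries, against 583 and 1482 over BMDM.

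Tnf and Ebi3 were read in every library, at 49 or more counts. Tnf ranged from 5.40 to 15.04 CPM in peritoneal and from 13.3 to 464 CPM in BMDM libraries. Its highest group means were in M1 cells, at 391 (KO_M1 with AP-3-84), 380 (WT_M1 with AP-3-84), 361 (KO_M1 vehicle) and 351 CPM (WT_M1 vehicle), and the ranges of neighbours among these 4 overlapped. Its lowest BMDM mean was 16.7 CPM in KO_M0 vehicle, which no other BMDM group's range reached. Ebi3 ranged from 6.55 to 46.1 CPM in peritoneal and from 36.7 to 394 CPM in BMDM libraries. Il6 was at most 4.45 CPM in every library outside KO_M1, where it stood between 8.79 and 37.2 CPM. Il12b was likewise highest in KO_M1, at 19.1 to 64.3 CPM over its 6 libraries, against at most 16.6 CPM in any other library. Il10 was highest in M1 groups and in KO_M0 with AP-3-84, with group means from 19.3 to 25.1 CPM, and the ranges of neighbours among these 5 groups overlapped. Osm ranged from 0.308 to 14.96 CPM in BMDM libraries with wide spread inside groups, and from 1.87 to 5.49 CPM in peritoneal ones.

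**Figure D1:**
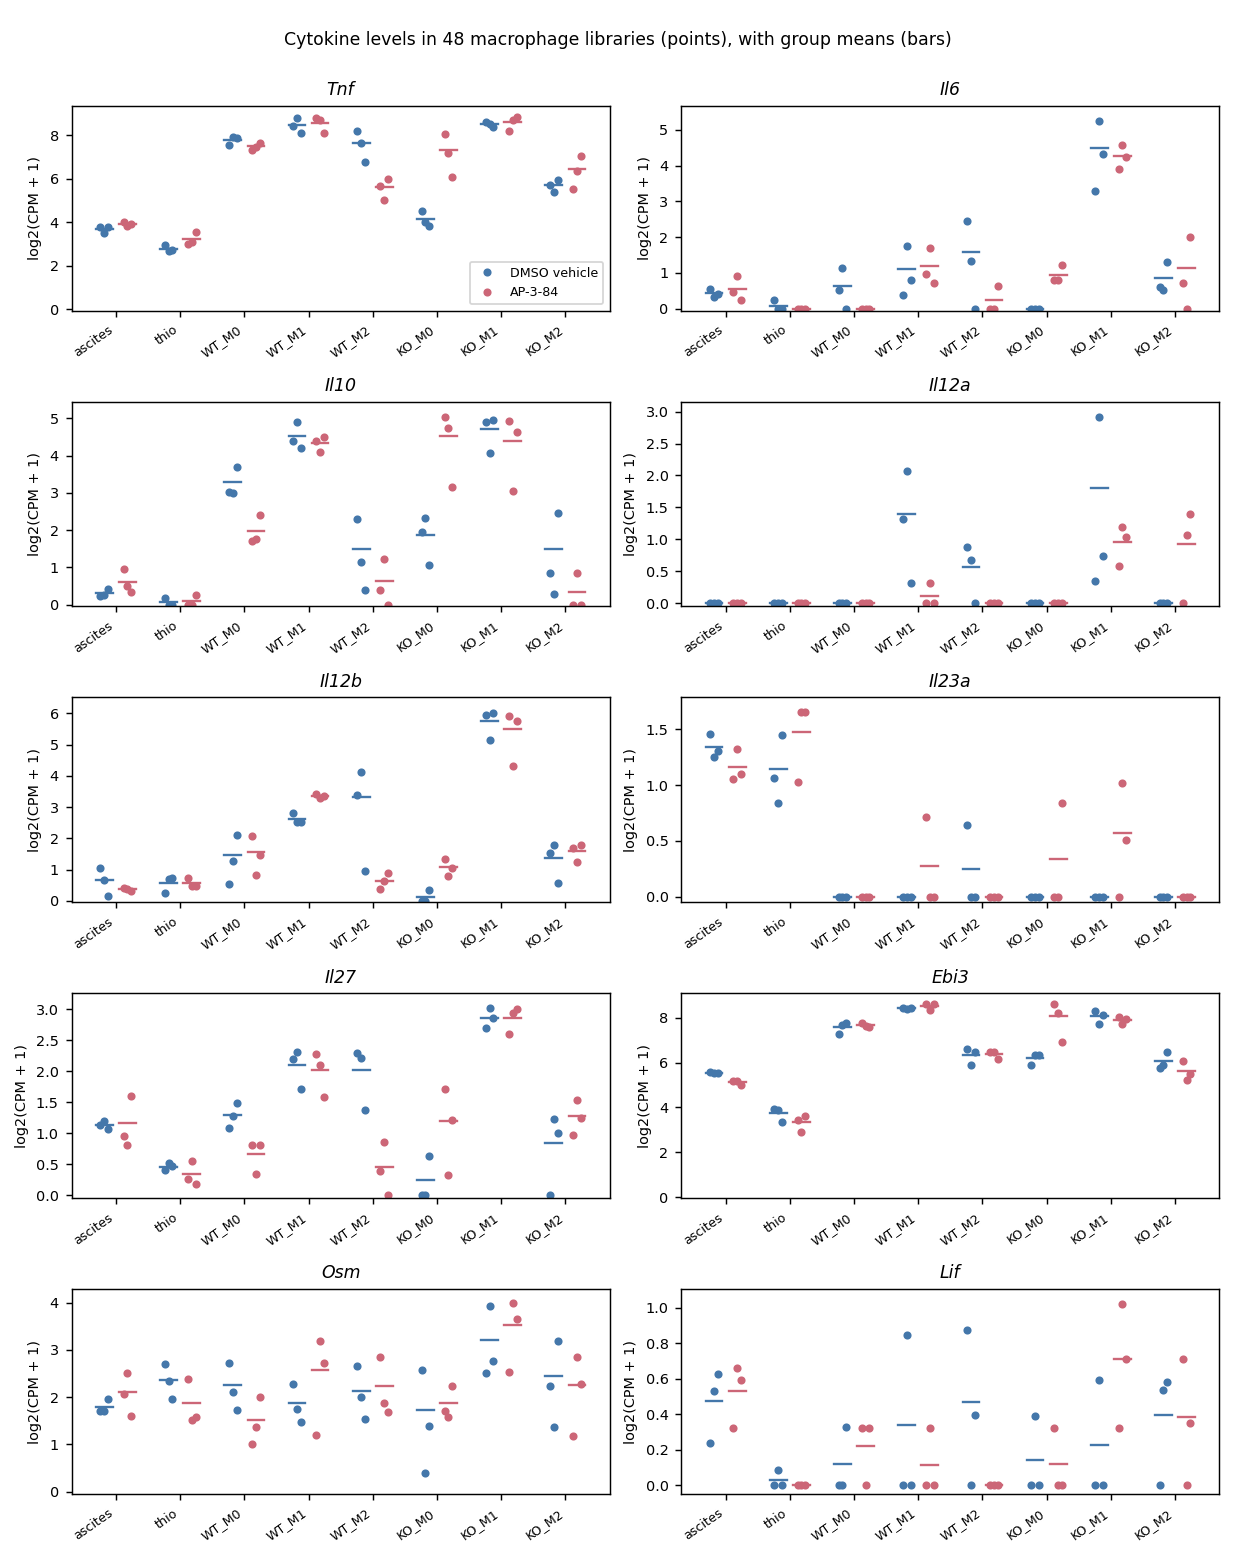
Levels of the 10 members, as log2(CPM + 1) on axes of different height, in the 8 populations with vehicle (blue) and AP-3-84 (red). Points are the 3 libraries of a group and bars the group means; Tnf, Ebi3 and Il10 in KO_M0 have all 3 treated points above all 3 vehicle points, and Il23a has values above 0 in every peritoneal library.

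AP-3-84 raised 3 members in KO_M0 (Tnf, Ebi3 and Il10) and lowered 2 in WT_M2 (Tnf and Il12b). In the other 6 populations no member was called by the quasi-likelihood test of edgeR at a Benjamini-Hochberg adjusted p under 0.05. Tnf thus moved in opposite directions in the 2 populations where it was called.

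In KO_M0 vehicle libraries, Tnf had 83, 49 and 49 counts (21.7, 15.1 and 13.3 CPM), and with AP-3-84 it had 1053, 584 and 251 counts (266, 144 and 66.4 CPM). All 3 treated libraries stood above all 3 vehicle libraries, with replicate 3 the lowest of the treated. The mean was 16.7 ± 4.47 CPM with vehicle and 159 ± 101 CPM with the compound (SD, n = 3), with a log2 fold change of 3.25 (edgeR SE 0.434, adjusted p 9.84e-06), or 2.66 without treated replicate 1 (edgeR adjusted p 0.000105). Ebi3 was at 58.7, 79.1 and 80.9 CPM with vehicle and at 394, 298 and 119 CPM with AP-3-84. Again the groups did not overlap and treated replicate 3 was the lowest. The log2 fold change of Ebi3 was 1.89 (edgeR SE 0.278, adjusted p 1.83e-05). Il10 had 11, 13 and 4 counts with vehicle and 127, 105 and 30 counts with AP-3-84 (7.94 to 32.1 CPM). Its log2 fold change was 3.05 (edgeR SE 0.674, adjusted p 0.00191), also without overlap of the groups. These 3 calls held under each of the 13 other settings tried for them, including the removal of each single library.

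In KO_M0, 3 of 7 members tested were called, all higher, against 20.7% of all genes called and 12.1% called higher. The median log2 fold change over the 7 was 3.05, against -0.03 over all genes. Another 3 had an unadjusted p under 0.05 without being called. Il6 had 0 counts in every vehicle library and 3, 3 and 5 with AP-3-84, at least 3.35-fold higher when 3 counts per group serve as the floor (edgeR adjusted p 0.0929). Il12b had 1 count over the vehicle and 13 over the treated libraries, a ratio of 11.9 with a 95% counting interval from 1.78 to 504 (edgeR adjusted p 0.121). Il27 had 2 and 15 counts, a ratio of 6.85 with an interval from 1.59 to 61.7 (edgeR adjusted p 0.0519). DESeq2 called 5 members here. The shares of all genes that DESeq2 called are not given, so its counts here and below have no background beside them. Osm did not move by more than its error (log2 fold change 0.16, SE 0.751). Summed macrophage markers in the treated libraries were 38791, 17926 and 29060 CPM, against 32252 to 38950 CPM with vehicle. Over all BMDM libraries Lyz2 reached 41680 CPM and the next highest of the 7, Csf1r, 8054 CPM, so Lyz2 can dominate this sum and those below. Summed neutrophil-type markers (listed below) were 521, 643 and 526 CPM with vehicle and 269, 272 and 424 CPM with AP-3-84, without overlap. In bulk libraries, fewer cells of a type and less RNA per cell cannot be told apart. The part of these differences in the cytokine results was not tested.

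In WT_M2 vehicle libraries, Tnf had 1044, 662 and 342 counts (291, 200 and 108 CPM), and with AP-3-84 it had 160, 117 and 226 counts (49.4, 31.4 and 62.8 CPM). All treated libraries were below all vehicle libraries, and the vehicle libraries spread widely. The log2 fold change was -2.06 (edgeR SE 0.401, adjusted p 0.00668). Il12b had 34, 55 and 3 counts with vehicle and 1, 2 and 3 with AP-3-84. The groups did not overlap, but vehicle replicate 3 (0.95 CPM) was close to the treated libraries (0.309 to 0.834 CPM). Its log2 fold change was -3.92 (edgeR SE 0.786, adjusted p 0.00725). These 2 lower calls among 7 members stand against 1.21% of all genes called and 0.976% called lower, and the members' median was -2.06 against 0.00 for all genes. Both calls depended on single libraries. Tnf lost its call without vehicle replicate 1 (log2 fold change -1.70, edgeR adjusted p 0.0509) and without treated replicates 1 or 2 (edgeR adjusted p 0.0546 and 0.0732). It also lost it in a fit of these 2 groups alone (edgeR adjusted p 0.129). Il12b lost its call without vehicle replicate 2 (log2 fold change -3.16, edgeR adjusted p 0.0616) and without treated replicates 1 or 2 (edgeR adjusted p 0.0726 and 0.0630). In a fit of these 2 groups alone Il12b did not pass the filter on low counts and had no test.

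Vehicle replicate 1 of WT_M2, where Tnf was highest, also stood apart in neutrophil-type markers (Ly6g, S100a8, S100a9, Mpo, Elane, Camp), with a sum of 3734 CPM against 543 and 412 CPM in the other vehicle and 182 to 486 CPM in the treated libraries. Over all BMDM libraries S100a8 reached 2310 CPM and S100a9 1419 CPM, Camp at most 42.7 CPM and Mpo at most 26.0 CPM, and Ly6g was at most 1.26 CPM in every BMDM library. Without that library, the log2 fold change of Tnf stayed negative, as given above. Summed dendritic cell markers (Flt3, Zbtb46, Ccr7, Xcr1, Clec9a, Siglech) were at 6.40, 12.7 and 12.0 CPM with vehicle and 3.40, 5.09 and 4.45 CPM with AP-3-84, without overlap, and were highest in vehicle replicate 2, where Il12b was highest. Xcr1, Clec9a and Siglech had 0 counts in the WT_M2 vehicle libraries. In the treated libraries only Zbtb46 had counts, so that sum is 1 gene and not a set of markers. The part of both marker sums in the Il12b and Tnf results was not tested.

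Il27, the other WT_M2 member with an unadjusted p under 0.05 beside Il6, had 14, 12 and 5 counts with vehicle and 1, 3 and 0 with AP-3-84 (log2 fold change -2.91 with SE 0.796, edgeR adjusted p 0.0608). DESeq2 called 3 members in WT_M2. Il6 had 21 counts over the vehicle and 2 over the treated libraries, a ratio of 11.0 with a counting interval from 2.69 to 97.0 (edgeR adjusted p 0.296), and 16 of the 21 were in vehicle replicate 1. Ebi3, in contrast, had a log2 fold change of 0.02 (edgeR SE 0.274, adjusted p 0.986).

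**Figure D2:**
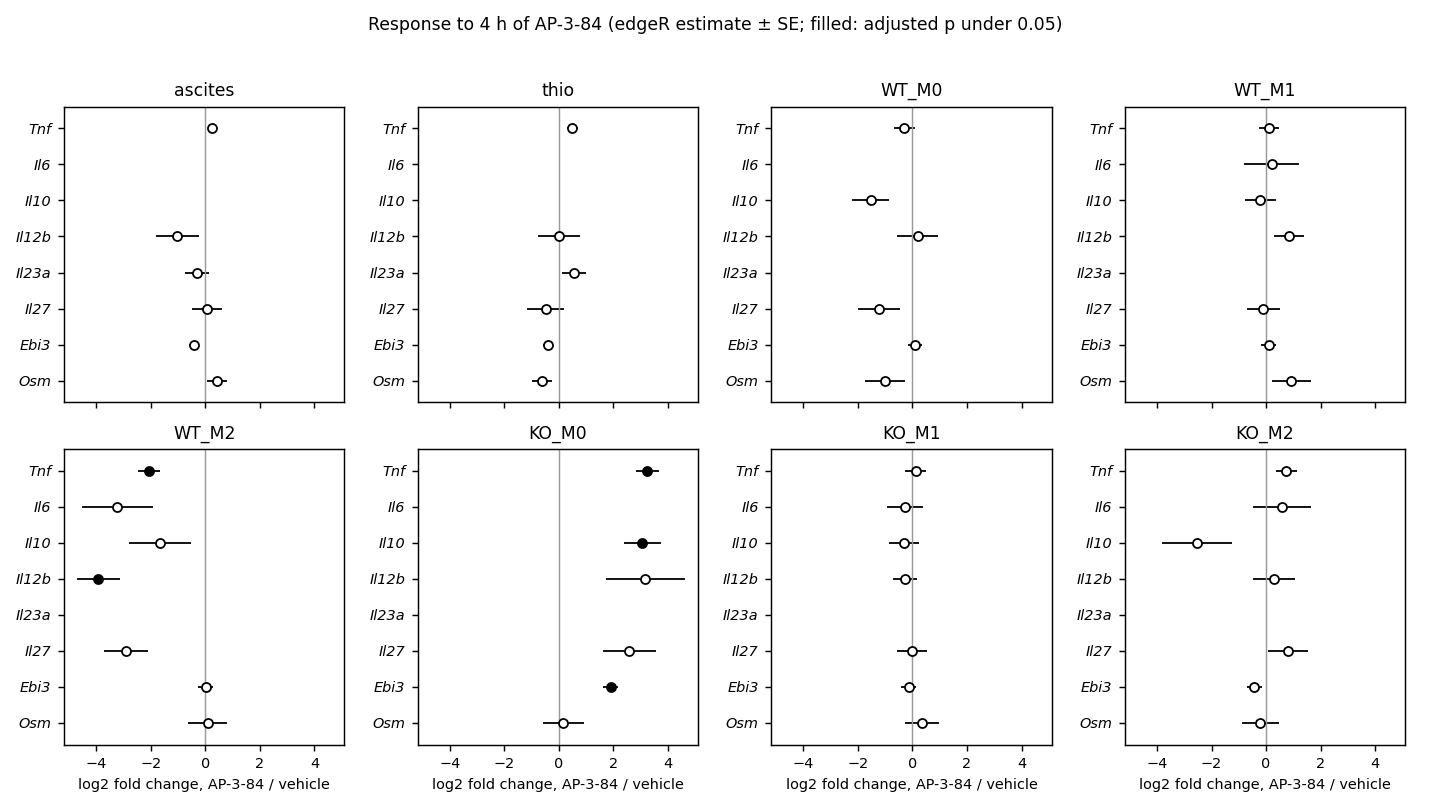
Log2 fold changes with AP-3-84 in each population (edgeR estimate, bars ± SE, n = 3 against 3), for members tested there. Filled points were called, which are Tnf, Il10 and Ebi3 in KO_M0 and Tnf and Il12b in WT_M2; members without a test, or with 0 counts in a whole group, have no point.

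In the other populations the members' counts of calls by edgeR were 0, and DESeq2 also called 0. The share of all genes called was 1.79% in ascites, 4.32% in thio, 0.144% in WT_M0, 0.017% in WT_M1, 0.0% in KO_M1 and 0.0509% in KO_M2. Members with an unadjusted p under 0.05 numbered 1 in ascites, 2 in thio, 1 in WT_M0 and 0 in each of WT_M1, KO_M1 and KO_M2. In ascites, Ebi3 was at 46.1, 45.4 and 44.6 CPM with vehicle and 35.3, 34.7 and 31.4 CPM with AP-3-84. The groups did not overlap, while the call was missed (log2 fold change -0.43 with SE 0.162, edgeR adjusted p 0.320). Ebi3 in thio had a log2 fold change of -0.42 (edgeR SE 0.181, adjusted p 0.272). Tnf was at 6.90, 5.40 and 5.53 CPM with vehicle and 6.91, 7.42 and 10.8 CPM with AP-3-84 in thio (log2 fold change 0.50 with SE 0.185, edgeR adjusted p 0.169). In ascites its log2 fold change was 0.26 (edgeR SE 0.174, adjusted p 0.658). In WT_M0, Il10 had 32, 29 and 47 counts with vehicle and 9, 9 and 17 with AP-3-84, without overlap (log2 fold change -1.54 with SE 0.677, edgeR adjusted p 0.479).

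In M1 cells of either genotype no member was called. Tnf had log2 fold changes of 0.11 (edgeR SE 0.375, adjusted p 0.972) in WT_M1 and 0.12 (edgeR SE 0.374, adjusted p 1) in KO_M1, and Ebi3 of 0.09 and -0.15. Il12a, too low to test, had 5, 12 and 1 counts in WT_M1 vehicle and 0, 1 and 0 with AP-3-84, a ratio of 16.4 with a counting interval from 2.59 to 683. In KO_M2 it went from 0 counts to 10, at least 3.90-fold higher, of which 4 and 6 were in treated replicates 2 and 3. Tnf in KO_M2 was at 51.5, 40.8 and 60.8 CPM with vehicle and 45.9, 80.4 and 129 CPM with AP-3-84, with overlap (log2 fold change 0.74 with SE 0.393, edgeR adjusted p 0.446).

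The responses to AP-3-84 were then compared between genotypes and between the peritoneal populations. In M0, 5 of 7 members had a response that was higher in KO than in WT (17.0% of all genes called, 10.0% higher). The differences on the log2 scale were 3.54 for Tnf (SE 0.570, edgeR adjusted p 0.000178), 1.81 for Ebi3 (edgeR SE 0.382, adjusted p 0.00198) and 4.59 for Il10 (edgeR SE 0.956, adjusted p 0.00190). Il27 was called at 3.82 (edgeR SE 1.23, adjusted p 0.0292) and lost its call without any 1 of 5 libraries, with edgeR adjusted p from 0.0516 to 0.121 in those fits. They were vehicle replicate 3 and AP-3-84 replicate 2 of WT_M0, vehicle replicates 1 and 2 of KO_M0, and AP-3-84 replicate 1 of KO_M0. Il6 was called too (edgeR adjusted p 0.0371), but with 7 counts in WT_M0 vehicle, 0 in WT_M0 with AP-3-84, 0 in KO_M0 vehicle and 11 in KO_M0 with AP-3-84 its fitted size is no estimate, and 10 of the 12 fits that left out a library lost it. In M2, Tnf had a difference of 2.81 (edgeR SE 0.560, adjusted p 0.00960; 1.77% of all genes called, 1.08% higher), lost in a fit of the 4 groups alone (edgeR adjusted p 0.0892). Il12b (4.22, edgeR adjusted p 0.0522) and Il27 (3.71, edgeR adjusted p 0.0807) were not called. In M1 and between ascites and thio, 0 members were called, by edgeR or DESeq2, none had an unadjusted p under 0.05, and 0.00849% and 0.118% of all genes were called.

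The KO_M0 vehicle libraries, the reference of the response above, also carried low cytokine RNA when set against WT_M0. In vehicle libraries, 4 of 7 members were lower in KO_M0 than in WT_M0, against 33.2% of all genes called and 16.8% called lower, with a members' median of -2.76 against 0.03 for all genes. Tnf was at 187, 238 and 236 CPM in WT_M0 and at 21.7, 15.1 and 13.3 CPM in KO_M0 (log2 fold change -3.72 with SE 0.439, edgeR adjusted p 8.94e-07). Ebi3 was at 190 ± 31.7 CPM in WT_M0 and 72.9 ± 12.3 CPM in KO_M0 (SD, n = 3), with log2 fold change -1.38 (edgeR SE 0.275, adjusted p 0.000337). Neither group pair overlapped. Il12b had 21 counts over WT_M0 and 1 over KO_M0, a ratio of 18 with a counting interval from 2.90 to 744 (edgeR adjusted p 0.0298). Il27 had 18 and 2 counts, a ratio of 7.71 with an interval from 1.85 to 68.6 (edgeR adjusted p 0.0231). Each of these 2 low-count calls was lost without WT_M0 replicate 3 or KO_M0 replicates 1 or 2, with edgeR adjusted p from 0.0542 to 0.0934 for Il27 and from 0.0877 to 0.150 for Il12b. Without KO_M0 replicate 3, which held all of their KO_M0 counts, the calls stayed, at fitted log2 fold changes of -5.71 for Il12b and -5.49 for Il27 that rest on 0 counts. Il10 missed the call (8.71 ± 2.87 against 2.66 ± 1.47 CPM, SD, n = 3; edgeR adjusted p 0.0597). The responses of KO_M0 to AP-3-84 and to polarization share these vehicle libraries, so their log2 fold changes are not independent. With AP-3-84, the Tnf values of KO_M0 (66.4 to 266 CPM) spanned those of the WT_M0 vehicle libraries.

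**Figure D3:**
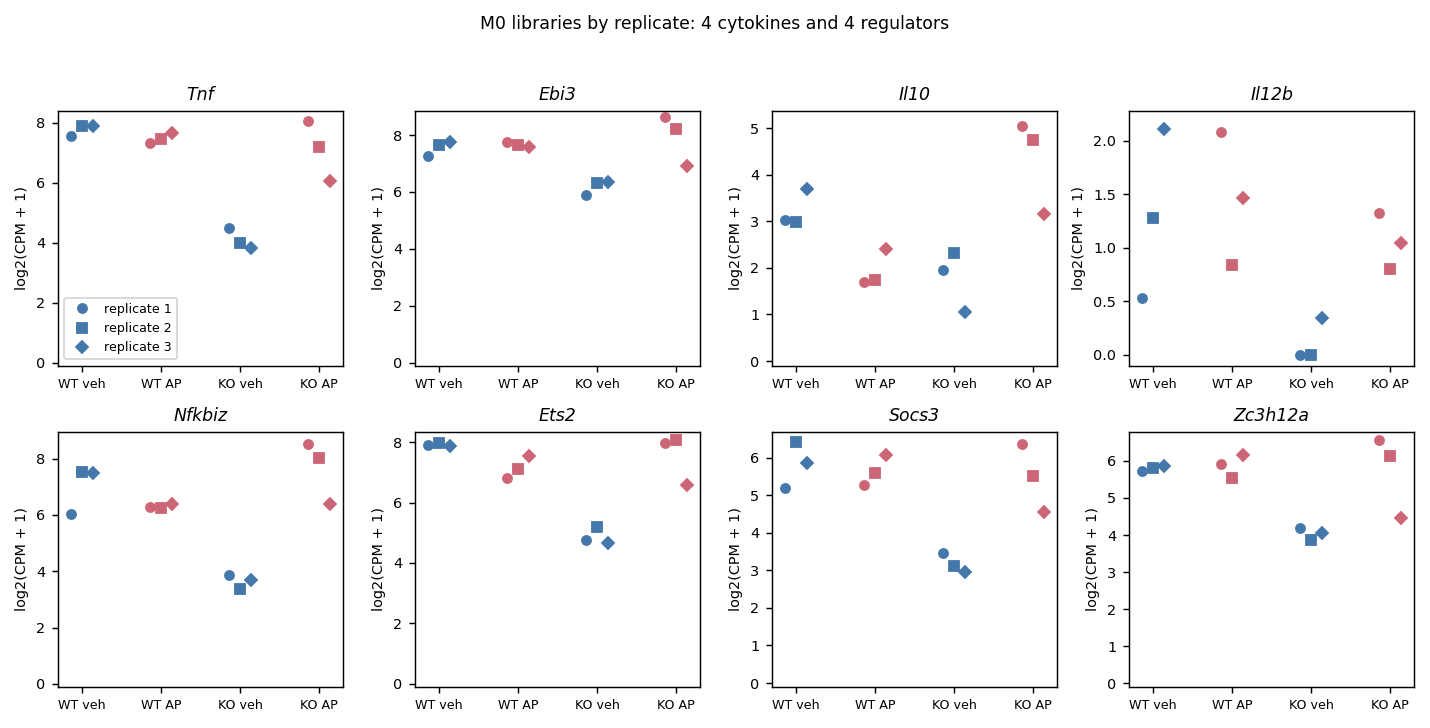
M0 libraries as log2(CPM + 1), for 4 cytokines (top) and 4 regulators (bottom), with vehicle (veh, blue) and AP-3-84 (AP, red), each marker shape standing for 1 replicate number. The 3 KO vehicle points lie below the 3 WT vehicle points for all 8 genes, and for Tnf, Ebi3, Il10, Nfkbiz, Ets2, Socs3 and Zc3h12a treated replicate 3 of KO is the lowest of its group. Other genes of the lists that hold these 4 regulators were higher in KO than in WT vehicle libraries.

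Polarization with LPS and IFN-γ gave higher cytokine RNA in KO cells for every member tested. From M0 to M1 in vehicle libraries, 7 of 7 members were called higher in KO (44.5% of all genes called, 22.8% higher) and 1 of 7 in WT (15.5% called, 8.01% higher). The filter runs over all BMDM libraries, and outside KO_M1 Il6 reached at most 4.45 CPM. Il6 was therefore tested because of its KO_M1 libraries, and the 7 of 7 in KO is in part set by the filter. The members' medians were 4.43 in KO and 1.02 in WT, against -0.01 and 0.00 over all genes. In the same KO libraries, summed macrophage markers were 32252 to 38950 CPM in M0 and 16073 to 25150 CPM in M1, and neutrophil-type markers 521 to 643 CPM and 962 to 2377 CPM, neither with overlap. Their part in the KO result was not tested.

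In KO cells, Il6 had 0 counts in all M0 libraries and 32, 147 and 86 in M1, at least 78.8-fold higher against the floor of 3 counts (edgeR adjusted p 8.59e-06). Il12b had 0, 0 and 1 counts in M0 and 222, 135 and 288 in M1, a ratio of 575 with a counting interval from 103 to 22750 (edgeR adjusted p 2.13e-08). Il27 had 2 counts in M0 and 76 in M1, a ratio of 33.9 with an interval from 9.06 to 285 (edgeR adjusted p 2.28e-05), and both M0 counts were in replicate 3. Tnf rose from a mean of 16.7 ± 4.47 CPM to one of 361 ± 26.4 CPM (SD, n = 3), with log2 fold change 4.43 (edgeR SE 0.449, adjusted p 3.74e-08). The log2 fold change was 3.24 for Il10 (edgeR SE 0.673, adjusted p 0.000310) and 1.86 for Ebi3 (edgeR SE 0.277, adjusted p 4.33e-06). Of the 7, Osm had groups that overlapped, with 19, 1 and 6 counts in M0 and 17, 56 and 26 in M1 (log2 fold change 1.79 with SE 0.693, edgeR adjusted p 0.0360). Its call was lost without M1 replicate 2 (log2 fold change 1.16, edgeR adjusted p 0.223) and without M0 replicates 2 or 3 (edgeR adjusted p 0.150 and 0.113). It was also lost with the replicate number as a block (edgeR adjusted p 0.0734) and in a fit of the 2 groups alone (edgeR adjusted p 0.0634), while without M0 replicate 1 its log2 fold change was 3.01.

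In WT cells, Ebi3 rose from 154, 202 and 214 CPM in M0 to 347, 336 and 349 CPM in M1, by a log2 fold change of 0.86 (edgeR SE 0.267, adjusted p 0.0273). That call was lost without 5 of the 6 libraries, all but M0 replicate 3 (edgeR adjusted p 0.0669 to 0.116), and with total-count scaling (log2 fold change 0.55, edgeR adjusted p 0.128). Tnf, Il10, Il12b and Il27 had all M1 libraries above all M0 libraries without being called, with log2 fold changes of 0.67, 1.35, 1.59 and 1.16 (edgeR adjusted p 0.251, 0.119, 0.107 and 0.236). The share of all genes with such a separation was not counted, so the separation adds nothing to these tests. Il12a had 0 counts in the M0 vehicle libraries of both genotypes. In M1 it had 5, 12 and 1 counts in WT, at least 6.79-fold higher, and 1, 26 and 3 in KO, at least 8.92-fold higher. DESeq2, run on the same filtered genes, called 1 member in WT and 7 in KO. Il6 is again among the 7 because of its KO_M1 libraries, and the shares of all genes called by DESeq2 are not given.

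The rise from M0 to M1 differed between the genotypes for 4 members (20.7% of all genes called, 11.2% higher in KO). Il6, 1 of the 4, was tested because of its KO_M1 libraries, so its difference is in part set by the filter. The differences on the log2 scale were 3.75 for Tnf (SE 0.569, edgeR adjusted p 3.93e-05), 7.14 for Il12b (SE 1.33, edgeR adjusted p 0.000294), 3.69 for Il27 (edgeR SE 1.10, adjusted p 0.0163) and 8.34 for Il6 (edgeR SE 2.25, adjusted p 0.00933). The last 3 rest on KO_M0 libraries with 0 to 2 counts, so their sizes depend on the prior count of the fit. Without KO_M0 replicate 3, the fitted difference was 6.44 for Il27 and 9.09 for Il12b. Without WT_M0 replicate 2, Il6 lost its call (edgeR adjusted p 0.107), and without KO_M0 replicate 1, Il27 did (edgeR adjusted p 0.0533).

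Within M1, the Tnf values of the genotypes overlapped. Tnf was at 342, 440 and 272 CPM in WT_M1 and 387, 360 and 334 CPM in KO_M1 (log2 fold change 0.04 with SE 0.375, edgeR adjusted p 0.967). Il6 and Il12b were the 2 members called of 7, both higher in KO (11.6% of all genes called, 5.93% higher). Il6 was among the 7 because of its KO_M1 libraries, as said above. Il6 had 1, 9 and 3 counts in WT_M1 and 32, 147 and 86 in KO_M1 (log2 fold change 4.19 with SE 0.841, edgeR adjusted p 0.00220), with estimates of 5.25 without WT_M1 replicate 2 and 3.58 without KO_M1 replicate 2. Il12b had 20, 18 and 19 counts against 222, 135 and 288 (log2 fold change 3.36 with SE 0.532, edgeR adjusted p 0.000152). Neither pair of groups overlapped. The 2 calls held without any single library. Nos2, the M1 enzyme that makes nitric oxide, was also higher in KO_M1, at 12.2 ± 4.84 against 3.38 ± 1.68 CPM (SD, n = 3; log2 fold change 1.85, edgeR adjusted p 0.0492). Beside these results, the summed neutrophil-type markers were 1622, 962 and 2377 CPM in KO_M1 and 431 to 560 CPM in WT_M1 vehicle libraries. Summed macrophage markers were 16073 to 25150 CPM in KO_M1 against 43565 to 46541 CPM in WT_M1. Their part in the Il6 and Il12b results was not tested.

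**Figure D4:**
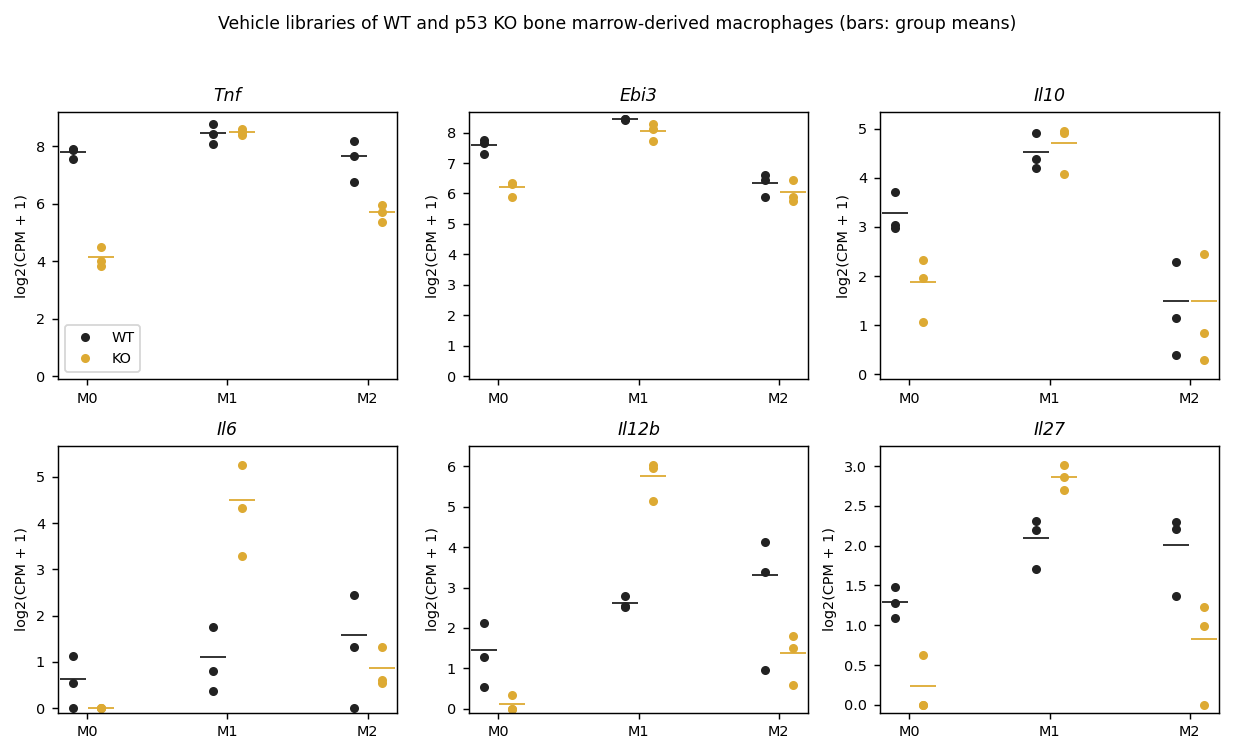
Vehicle libraries of WT (black) and KO (yellow) BMDM in M0, M1 and M2, as log2(CPM + 1); points are libraries and bars group means. Il6 and Il12b are highest in KO M1 without overlap with WT M1, while Tnf differs between genotypes in M0 and M2 and overlaps in M1.

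M2 polarization moved single members. In WT, 1 member was higher and 2 lower than in M0 (23.4% of all genes called, 12.7% higher and 10.7% lower). Ebi3 averaged 190 ± 31.7 CPM in M0 and 80.3 ± 19.7 CPM in M2 (SD, n = 3), with log2 fold change -1.24 (edgeR SE 0.274, adjusted p 0.00127). Il10 fell from 32, 29 and 47 counts to 14, 4 and 1 (log2 fold change -2.20 with SE 0.744, edgeR adjusted p 0.0315). Il12b rose from 2, 6 and 13 counts to 34, 55 and 3, with overlap (log2 fold change 2.40 with SE 0.635, edgeR adjusted p 0.00619). The call of Il10 was lost without M0 replicate 3 or M2 replicates 2 or 3 (edgeR adjusted p 0.105, 0.108 and 0.140). Without M2 replicate 1 its log2 fold change was -3.45. The call of Il12b was lost without M2 replicate 2 (log2 fold change 1.64, edgeR adjusted p 0.0890), as it was when only these 2 groups were fitted (edgeR adjusted p 0.133). Without M0 replicate 3 its log2 fold change was 3.24. Tnf was not called (log2 fold change -0.14 with SE 0.378, edgeR adjusted p 0.824).

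In KO, 2 of 7 members were higher in M2 than in M0 (38.0% of all genes called, 20.1% higher), a count near these shares. Tnf was at 51.5, 40.8 and 60.8 CPM in M2 against 21.7, 15.1 and 13.3 CPM in M0 (log2 fold change 1.61 with SE 0.425, edgeR adjusted p 0.00419). Il12b had 20 counts against 1, a ratio of 17.6 with a counting interval from 2.81 to 729 (edgeR adjusted p 0.02999), lost without M0 replicates 1 or 2 or M2 replicates 1 or 2 (edgeR adjusted p 0.0576 to 0.114). The M2 response differed between genotypes for Ebi3 (1.10 higher in KO, SE 0.387, edgeR adjusted p 0.0350) and Tnf (1.75 higher in KO, SE 0.568, edgeR adjusted p 0.0244), with 27.1% of all genes called and 13.9% higher. The count of 2 of 7 members is near the share of all genes called. Without single libraries, 6 of the removals ended the Ebi3 call and 4 the Tnf call. For Ebi3 they were WT_M0 replicates 2 and 3, WT_M2 replicates 2 and 3, KO_M0 replicate 1 and KO_M2 replicate 3 (edgeR adjusted p 0.0515 to 0.128). For Tnf they were WT_M2 replicate 3, KO_M0 replicates 2 and 3 and KO_M2 replicate 3 (edgeR adjusted p 0.0539 to 0.0697). Summed macrophage markers were 32252 to 38950 CPM in KO_M0 and 18413, 9340 and 5894 CPM in KO_M2 vehicle libraries, without overlap. Neutrophil-type sums overlapped, at 521 to 643 CPM in KO_M0 and 319, 586 and 3052 CPM in KO_M2. The part of these sums in the KO results was not tested.

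Between genotypes in M2, Tnf and Il12b were lower in KO (3.56% of all genes called, 2.34% lower). Tnf was at 291, 200 and 108 CPM in WT_M2 and 51.5, 40.8 and 60.8 CPM in KO_M2 (log2 fold change -1.97 with SE 0.398, edgeR adjusted p 0.00595), lost without KO_M2 replicate 2 (edgeR adjusted p 0.0503) and in a fit of the 2 groups alone (edgeR adjusted p 0.128). Il12b had 34, 55 and 3 counts against 7, 11 and 2, with overlap (log2 fold change -2.45 with SE 0.640, edgeR adjusted p 0.0276). Its call was lost without WT_M2 replicates 1 or 2 or KO_M2 replicates 2 or 3 (edgeR adjusted p 0.0632, 0.160, 0.0608 and 0.172), and without WT_M2 replicate 2 its log2 fold change was -1.71. Vehicle replicate 3 of KO_M2 had a neutrophil-type sum of 3052 CPM and a macrophage sum of 5894 CPM, against 319 and 586 CPM and 18413 and 9340 CPM in the other 2. The part of these sums in the Il12b and Tnf results was not tested.

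Among peritoneal macrophages with vehicle, 3 of 6 members were higher in ascites than in thio (33.7% of all genes called, 20.3% higher). Ebi3 was at 46.1, 45.4 and 44.6 CPM in ascites and 14.1, 13.9 and 9.28 CPM in thio (log2 fold change 1.87 with SE 0.172, edgeR adjusted p 2.90e-07). Tnf was at 12.6, 10.3 and 12.6 CPM against 6.90, 5.40 and 5.53 CPM (log2 fold change 0.99 with SE 0.181, edgeR adjusted p 0.000301), lost in a fit of all 48 libraries (edgeR adjusted p 0.0583). Il27 had 20, 26 and 20 counts against 5, 7 and 7 (log2 fold change 1.64 with SE 0.612, edgeR adjusted p 0.0476). In all 3 cases every ascites library was above every thio library. How many of all genes separate in this way was not counted, so the separation adds nothing to these tests. The Il27 call was lost without any 1 of the 6 libraries (edgeR adjusted p 0.0829 to 0.126), with median-ratio size factors (0.0522), with no filter on low counts (0.105) and with the replicate number as a block (0.0733). Among members too low to test, Lif had 3, 9 and 10 counts in ascites against 0, 1 and 0 in thio, a ratio of 20.1 with a counting interval from 3.24 to 828. Il6 had 19 counts against 3 (ratio 5.78, interval from 1.70 to 30.5) and Il10 13 against 2 (ratio 5.93, interval from 1.34 to 54.1). Il23a, the IL-23 chain, was not called (29, 28 and 27 against 17, 13 and 32 counts, edgeR adjusted p 0.649). Summed epithelial or mesothelial markers (Epcam, Krt8, Krt18, Krt19, Wt1, Msln) were 184 to 216 CPM in ascites vehicle libraries and 2.55 to 4.34 CPM in thio. Their part in the cytokine differences was not tested.

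Il27 overlaps Apobr and Ebi3 overlaps Gm16712, each on the opposite strand, in GENCODE M21 (GRCm38). Whether the counting used strand is not stated, so reads of these pairs may not be separated. The other 8 members overlap no annotated gene.

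Genes around these cytokines were counted in lists written from general knowledge. Receptors (12 genes, 10 tested in each fit) included few called with AP-3-84. In KO_M0 (20.7% of all genes called), 2 were lower, Il10rb (log2 fold change -0.58, edgeR adjusted p 0.0106) and Il6st (-1.18, edgeR adjusted p 0.0495). In thio (4.32% called) 1 was lower, again Il10rb (-0.29, edgeR adjusted p 0.0385), and 0 were called in the other 6 populations. From M0 to M1 in KO all 10 tested were called, 3 higher and 7 lower, against 44.5% of all genes called and 22.8% called higher. Tnfrsf1b, a TNF receptor, rose from 303 ± 17.6 to 971 ± 192 CPM and Il6ra, the IL-6 binding receptor chain, fell from 115 ± 9.62 to 26.5 ± 3.85 CPM (SD, n = 3; log2 fold changes 1.68 and -2.12, edgeR adjusted p 1.41e-08 and 7.70e-08). In WT (15.5% of all genes called), 2 were higher and 1 lower, among them Il23r, which rose from 0.0797 ± 0.138 to 11.3 ± 0.581 CPM (log2 fold change 6.65, edgeR adjusted p 2.67e-06). Lifr, the LIF receptor, was at 6.27 ± 1.88 CPM in KO_M0 and 0.325 ± 0.162 CPM in WT_M0 (SD, n = 3; log2 fold change 4.16, edgeR adjusted p 2.04e-05), 1 of 4 receptors higher in KO with 1 lower (33.2% of all genes called).

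Other cytokines of these families (11 genes) were mostly too low, with 3 tested in peritoneal cells and 1 in BMDM. Clcf1, a cytokine that signals through gp130, was higher in ascites than in thio (4.72 ± 0.969 against 0.881 ± 0.184 CPM, SD, n = 3; log2 fold change 2.40, edgeR adjusted p 9.05e-06). Il11 was higher in KO M1 than in KO M0 (log2 fold change 2.14, edgeR adjusted p 0.0424).

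Receptor signalling genes (12, all tested) and transcription regulators (15, all tested) were counted in KO_M0 with AP-3-84, where 20.7% of all genes were called and 12.1% called higher. Of the first, 3 rose and 1 fell, and of the second, 4 rose and 1 fell. Nfkbiz, an NF-kB cofactor needed for Il6 and Il12b transcription, was at 13.6, 9.23 and 11.9 CPM with vehicle and at 368, 260 and 81.8 CPM with AP-3-84 (log2 fold change 4.34 with SE 0.427, edgeR adjusted p 7.61e-08). Ets2, a transcription factor, was at 25.9, 35.1 and 24.1 CPM and then at 251, 266 and 93.7 CPM (log2 fold change 2.85, edgeR adjusted p 1.20e-05). Socs3, an inhibitor of gp130 signalling, was at 9.96, 7.70 and 6.76 CPM and then at 80.6, 44.4 and 22.2 CPM (log2 fold change 2.59, edgeR adjusted p 0.00229). In each case treated replicate 3 was the lowest of the treated libraries and above the vehicle libraries. Socs1 rose as well (log2 fold change 2.77, edgeR adjusted p 0.0158). Among 11 genes of mRNA decay and cytokine shedding, 3 rose and 1 fell in the same comparison (20.7% of all genes called), with Zc3h12a, the nuclease that degrades Il6 mRNA, at 17.3, 13.5 and 15.7 CPM and then at 93.7, 69.8 and 21.2 CPM (log2 fold change 1.99, edgeR adjusted p 1.94e-05). Nfkbiz, Socs3 and Zc3h12a were also lower in KO_M0 than in WT_M0 vehicle libraries (log2 fold changes -3.61, -2.84 and -1.82, edgeR adjusted p 6.47e-07, 0.000541 and 2.92e-05). The lists as wholes were mixed there, with 33.2% of all genes called. Of the regulators, 6 were higher in KO_M0 and 5 lower, of the signalling genes 2 and 3, and of the decay and shedding genes 3 and 4. Irf8, Jak1 and Zfp36l1 were among the higher (log2 fold changes 1.49, 0.83 and 2.24).

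In ascites with AP-3-84 (1.79% of all genes called), 2 of 15 regulators rose, Atf3 (88.3 ± 4.65 to 155 ± 17.1 CPM, SD, n = 3; log2 fold change 0.81, edgeR adjusted p 4.05e-06) and Ets2 (log2 fold change 0.58, edgeR adjusted p 0.0413). Atf3 is a stress-induced repressor of inflammatory genes. In thio (4.32% called), 3 regulators rose and 2 fell, with Atf3 at a log2 fold change of 0.51 (edgeR adjusted p 0.000317) and Maf, an activator of Il10, at -0.69 (edgeR adjusted p 0.000488). In WT_M2 (1.21% called), where Tnf and Il12b were lower, 1 of 12 signalling genes was lower, Jak2 (log2 fold change -0.86, edgeR adjusted p 0.0218), and 0 of 15 regulators were called. Ascites cells differed from thio cells in 14 of the 15 regulators, 11 higher and 3 lower, and in 8 of the 12 signalling genes, 7 higher and 1 lower, against 33.7% of all genes called and 20.3% called higher. Among the regulators, Irf1 was at 190.5 ± 2.85 against 59.4 ± 2.65 CPM (SD, n = 3; log2 fold change 1.68, edgeR adjusted p 3.54e-12).

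Over the 12 BMDM group means of log2 CPM, the gene most like each of 6 members was found among those whose average log2 CPM was at least 3, as a description over groups that share libraries of the same depth. It was Fpr2 for Tnf (Pearson r = 0.966), Kif3c for Il10 (0.985), Fam222b for Ebi3 (0.977), Nfkbib for Il12b (0.975), Rfc3 for Osm (0.931) and Il12b for Il27 (0.95). Among the members themselves, r was 0.929 between Ebi3 and Il10, 0.924 between Il6 and Il12b and 0.569 between Ebi3 and Il27, whose products form 1 cytokine. For Il6, Il27 and Osm these values rest on few reads.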

How the data were processed

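RNA was measured in 48 libraries by 3′ sequencing: per the labels' protocols, 100 ng of RNA went into QuantSeq FWD libraries read as single reads of 75 bases. The deposited table holds raw counts per gene, all whole numbers. The submitters' processing notes name RSEM, Bowtie2 and DESeq2 without roles or versions. Genome build, annotation, strand setting and molecular identifiers: not given in the sources used here. Intervals and floors cover counting error only. Gene IDs were matched to GENCODE M21 (GRCm38) for positions.

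Libraries were grouped by title. The members and lists were chosen with earlier results of these data known. Counts were tested with edgeR 4.0.16 (R 4.3.3) by the quasi-likelihood test with filterByExpr, TMM scaling, robust dispersion and 1 mean per group, over 16955 genes in 12 peritoneal and 11779 genes in 36 BMDM libraries. There were 22 comparisons, two-sided, each with Benjamini-Hochberg adjustment over all its genes and calls at an adjusted p under 0.05. Differences between responses are contrasts in the same fit. With 0 counts in a group, a bound uses a floor of 3 counts over the group. With 1 to 3 counts, the ratio has an exact 95% interval from the counts.

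Genes named from lists are at most the 2 called with the lowest p in a comparison. Genes most like a member are those with the highest Pearson r over the 12 BMDM groups. Some genes that these rules name are not reported here. Alternatives were median-ratio size factors, total-count scaling, no filter, DESeq2 1.42.0, a fit of the groups compared alone, all 48 libraries in one fit, a replicate block, and leaving out each library. The code was tested on simulated data.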

Additional observations from a re-analysis of the deposited data

Results flagged for a closer look

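These results were picked because the change under the same contrast differed between WT and KO cells by a test of the difference itself (edgeR adjusted p under 0.05, with all values on the log2 scale as KO minus WT). For the response of M0 cells to AP-3-84 they were Tnf (3.54), Ebi3 (1.806), Il10 (4.59), Il27 (3.821) and Il6 (9.025), the last with 0 counts in 2 of the 4 groups, so that the fitted value depends on the prior count and is no estimate of a size. For the response of M2 cells to AP-3-84 it was Tnf (2.805), which fell in WT_M2 and was not called in KO_M2. For the change from M0 to M1 in vehicle libraries they were Tnf (3.753), Il12b (7.135), Il27 (3.694) and Il6 (8.341), of which the last rests on 0 counts in KO_M0 vehicle libraries. Il6 also passed the filter because of its KO_M1 libraries, so its difference in this change is in part set by the filter. For the change from M0 to M2 they were Ebi3 (1.096) and Tnf (1.747), 2 of 7 members, near the 27.1% of all genes called. All of these except the M2 response of Tnf to AP-3-84 use the 3 KO_M0 vehicle libraries, so they are not independent of each other.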

How the results depend on the processing

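Over the 8 AP-3-84 comparisons there were 5 calls, of 4 members, with Tnf called in 2 comparisons. Settings that moved this by over 1.5 times were no filter on low counts (14 calls), DESeq2 (8) and a fit of the compared groups alone (3). Leaving out single libraries gave 3 to 7. The counts were 13 for polarization (12 to 15 without single libraries), 8 for KO against WT (6 to 8), 3 for ascites against thio (2 to 2) and 12 for differences between responses (9 to 14, and 19 with no filter). Of 41 called results of a member in a comparison, 21 kept their call under every alternative run, 20 lost it in at least 1, 18 of these without a single library, and 0 changed sign. In a fit of the compared groups alone, some called members did not pass the filter and had no test. They were Il12b with AP-3-84 in WT_M2, for KO against WT in M0 and M2, and for M2 against M0 in KO. Il27 for KO against WT in M0 had none either, nor had Il6 and Il27 for the difference in M0 response to AP-3-84. Total-count scaling moved the median of all genes by up to -0.30 (M1 against M0 in WT) and 0.27 (KO against WT in M1) on the log2 scale.

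The labels number replicates 1 to 3 in every group. Over 24 pairs of vehicle and AP-3-84 libraries with the same number, deviations from the group means had r from -0.53 to 0.522, 4 of them over 0.1, so the numbers were not taken to pair samples. With the replicate number as a block, the counts were 5, 12, 8, 2 and 12 in the same order. The block ended 2 calls, Osm in M1 against M0 in KO (log2 fold change 1.643) and Il27 in ascites against thio (1.66). Depth limits Il6, Il12a, Il23a and Lif most, whose groups often held 0 to 5 counts.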
